A study of Mus musculus with 15 samples.

Results

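The wild-type serum time course consists of 5 arrays out of the 15 in the series, chosen by the sample titles that name the line E14wt. E14 is an established mouse embryonic stem (ES) cell line. The cells received fetal bovine serum (FBS), and total RNA was taken at 0, 10, 30, 60 and 180 min and measured on Affymetrix MGU74A arrays, where several short probes, together called a probe set, report on 1 transcript. The series also holds Srf-null cells (E100-/-) and rescue cells (E100-/- rescue), each with the same 5 times and 1 array per time. Wild-type cells at 60 and 180 min of FBS (2 arrays) were compared with wild-type cells at 10 and 30 min of FBS (2 arrays), and the array labelled 0 min is shown but entered no contrast. The labels name no treatment other than FBS in any group, and the FBS concentration, any starvation before it, feeder cells and how the rescue was made are not stated in the labels. Nothing says that the times came from separate cultures, so p-values measure the spread between 2 time points of a series, which may be technical. In such bulk samples, less RNA per cell and fewer cells of a type cannot be told apart.

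Serum carries growth factors and lysophospholipids that act on cells within minutes through the Ras and ERK pathway and the actin cytoskeleton. The first transcripts to appear are immediate-early genes, which need no new protein to be switched on and many of which encode transcription factors of the EGR, FOS and JUN families. Serum response factor (SRF) drives many of them from DNA elements called CArG boxes, with ternary complex factors as its ERK-responsive partners at immediate-early genes and the actin-sensing MRTF cofactors at cytoskeletal genes. Products such as DUSP phosphatases and the RNA-decay factor ZFP36 then limit the signal. ES cells differ from fibroblasts in that they cycle continuously and keep a pluripotency programme.

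All levels are quantile-normalized intensity units, and differences are on the log2 scale after values under a floor of 84.98 units (the 40th percentile of all normalized values) were set to it. Of 10 ES cell markers, all 10 lay above the floor on 2 or more of the 4 arrays compared, and 2 of them were higher at 60 and 180 min without overlap (9.16% of all genes). Pou5f1 read 26738, 17074, 23991 and 13260.4 units at 10, 30, 60 and 180 min. The wild-type arrays differed in quality. For beta-actin, the signal at the 3' end over that at the 5' end, a measure that is high in degraded RNA, was 7.53 at 0 min, 0.847, 1.30 and 0.867 at 10, 30 and 60 min, and 2.11 at 180 min. The same ratio for GAPDH was 1.23 at 180 min and 0.683 to 0.840 at 10, 30 and 60 min, and its part in values that rest on the 180 min array was not tested. The 18S ribosomal RNA control (3' probe set) read 2318 and 2074 units at 10 and 60 min, 24309 and 29326 at 30 and 180 min, and 226 at 0 min. The brightness of the arrays before normalization split the same way. Its trimmed mean was 1309 and 1439 units at 10 and 60 min, and 578 and 452 units at 30 and 180 min. Each group compared therefore held 1 array of each kind, and the pairs 60 over 10 min and 180 over 30 min, which share no array, were also compared singly. Over 17 ribosomal protein genes the median level followed this split, with log2 differences of 0.68 (30 over 10 min), -0.81 (60 over 30 min) and 1.14 (180 over 60 min). Summed over 18 fibroblast feeder markers, the level was 18839 and 16648 units in the earlier and 18788 and 16459 units in the later group. Of these 18, 7 were above the floor on all 4 arrays, and Col1a2, Thy1, Pdgfra, Col5a2 and Loxl1 never were. Over 16 endoderm markers the summed level was 21713 and 23102 units earlier and 20370.3 and 19155 units later. Of these 16, 10 were above the floor on all 4 arrays, and Sox17, Foxa2, Hnf4a and Apoa1 never were.

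No transcript passed limma's test between the later and the earlier group after Benjamini-Hochberg adjustment. Of 7942 probe sets tested, 0 were called (0%), 213 had an unadjusted p under 0.05 (2.68%), and the smallest adjusted p was 0.188. With 2 arrays against 2, an exact permutation test cannot give a two-sided p under 0.333. All 4 arrays fell apart by group, with no overlap, for 1036 probe sets that were higher later (13%) and 1160 that were lower (14.6%). A 2-fold difference or more in both pairs was found for 119 probe sets that were higher (1.5%) and 90 that were lower (1.13%), a rule chosen after the data were seen. Across the 7942 probe sets, which are not independent replicates, the pair differences had a Pearson's r of 0.0415. In the list of immediate-early transcription factors the r was 0.778 over 32 genes, a description only. With the spread estimated over the 12 arrays of the 3 lines without the 0 min arrays, limma called 5 probe sets (0.063%, with 5.02% at an unadjusted p under 0.05). They were Fosb (2.21 ± 0.15, adjusted p = 4e-04), Zfp36 (3.40 ± 0.36, adjusted p = 0.0119), Nr4a1 (2.34 ± 0.31), Rhob (1.83 ± 0.24) and a probe set without a listed gene (1.53 ± 0.21), the last 3 with an adjusted p of 0.0447. All 5 were higher at 60 and 180 min than at 10 and 30 min. The probe set without a listed gene read 3412 units at 0 min, above its 2190 and 2493 at 60 and 180 min, whereas the named genes were lower at 0 min than later. With the time also taken as a block in that fit, limma called 5 probe sets again by count, with Fosb at an adjusted p of 0.0117.

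Transcription factors of the immediate-early class held several of the 12 largest higher values of the time course, those of Junb, Jun, Egr1, Egr2 and Atf3. Of 32 members on the array, 13 were higher at 60 and 180 min without overlap, where 9.16% of all 8220 genes were, and 2 were lower, where 10.6% of all genes were. Of those 8220 genes, 1749 were never above the floor, so their groups could not separate. Among the 7942 tested probe sets the shares were larger, 13% higher and 14.6% lower. A 2-fold difference in both pairs was reached by 9 of the 32 (1.02% of all genes). The list's median difference was 0.19, against 0 over all genes on the array, and 3 members were never above the floor. The members were chosen with earlier results of these data known, so these counts are not independent evidence of their direction.

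Junb, an AP-1 subunit, read 109.9, 173, 3161 and 3517 units at 10, 30, 60 and 180 min, and 180.4 at 0 min. Both later arrays were far above both earlier ones, with a difference of 4.60 ± 0.44 (SE, 2 arrays per group, limma adjusted p = 0.188) and the largest higher value of the time course under the rule for named genes. Its other probe set, with 181, 358, 1735 and 1963 units, had the same order of groups and a difference of 2.86 ± 0.49. Jun, the AP-1 partner of FOS proteins, read 47.2, -101, 1174 and 1464 units, so that both earlier arrays lay at the floor and its difference of 3.95 ± 0.56 is a lower limit.

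Egr1, a zinc-finger factor that is a classical SRF target, read 503, 1515, 9120.2 and 17551 units at 10, 30, 60 and 180 min and lay below 0 at 0 min. Each array was above the one before it, and the groups were separated by 3.86 ± 0.59 (adjusted p = 0.85). Its other probe set (-123, 28.6, 202 and 2841 units) was above the floor at 60 and 180 min only. Egr2, from the same family, gave -249, 600.2, 1589 and 2945 units, with the 10 min array at the floor and a difference of 3.26 ± 0.98. Of the 22 listed factors with a promoter window, out of 32, it was the one in which a CArG box was found.

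Fosb, another AP-1 subunit, read 1250.2, 1347, 6059 and 5913 units, with 1947 at 0 min. The later arrays differed little from each other, as did the earlier ones, and the difference was 2.21 ± 0.20 (adjusted p = 0.188). Fos itself was dim, with 93.7, -40.1, 136 and 332 units, and exceeded the later arrays at 0 min with 523. Its groups did not overlap, but the difference of 1.25 ± 0.62 rested on values near the floor. Fosl1 lay below 0 on all 5 arrays.

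Nr4a1, an orphan nuclear receptor, read 914, 818, 4000.2 and 4779.7 units, with a difference of 2.34 ± 0.23 (adjusted p = 0.188). Atf3, a stress-induced factor, gave 598, 268, 2033 and 4641 units and 2.94 ± 0.58, and another of its probe sets gave 2.85 ± 0.82, a lower limit, since it read 12.9 and 31.6 units at 10 and 30 min, under the floor. Its remaining probe set was above the floor on too few arrays to be tested. Ier2, a nuclear protein of the early response, was highest at 60 min, with 6572, 8271, 24499 and 19728 units and a difference of 1.58 ± 0.29. For these factors too, each later array was above each earlier one. Klf6 and Klf10, zinc-finger factors, were higher by 0.91 ± 0.35 and 0.57 ± 0.21 without overlap.

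Not every member followed this order. Myc was lower at the later times, with 465, 357, 267 and 169 units, above the floor on all 4 arrays, and a difference of -0.94 ± 0.61. Maff was lower by 0.58 ± 0.55, with values near the floor. Mycn, the MYC family member that is abundant in ES cells, gave 4634, 3274, 4479.5 and 2492 units, with overlapping groups. Jund, an AP-1 subunit that most cells make without stimulation, gave 11130.5, 14178, 6975 and 21293 units and also overlapped, the 60 min array being the lowest and the 180 min array the highest.

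**Figure D1:**
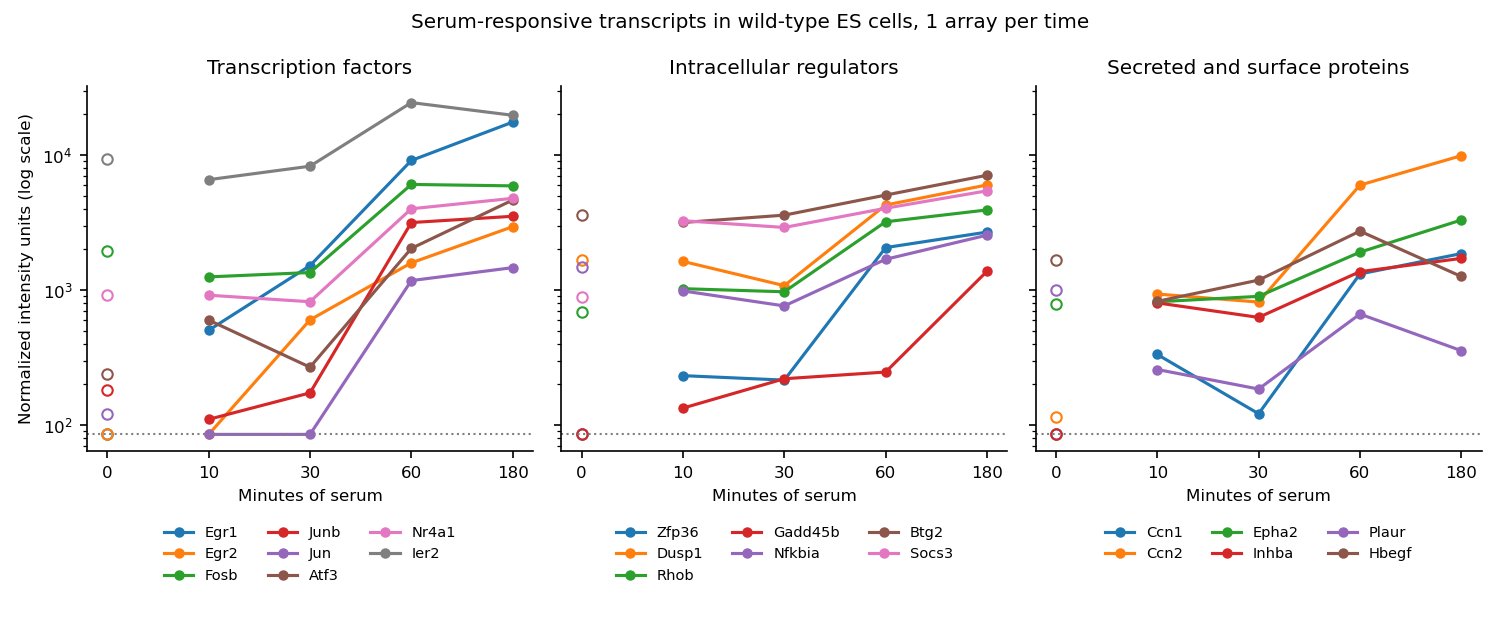
Normalized intensity (log scale) of early transcripts on each wild-type array, with times at equal spacing and 1 array per time; open points are the 0 min array, which entered no contrast, and the dotted line is the floor of 84.98 units, at which lower values are drawn. Junb, Egr1, Zfp36 and Ccn2 are higher at 60 and 180 min than at 10 and 30 min, whereas Gadd45b is clearly higher at 180 min only.

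Regulators that dampen signalling or act on mRNA had a median difference of 0.48, beside 0 over all genes on the array. Of 29 members on the array, 15 were higher without overlap (9.16% of all genes) and 2 were lower (10.6%), and 3 were 2-fold higher in both pairs (1.02%). Zfp36 encodes tristetraprolin, which binds AU-rich mRNAs and speeds their decay, and it read 232, 215, 2062 and 2686 units. Its level was alike on both earlier arrays and far higher on both later ones, a difference of 3.40 ± 0.39 (adjusted p = 0.348).

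Dusp1, a phosphatase that switches off MAP kinases, read 1628, 1077, 4263 and 6006 units and differed by 1.93 ± 0.31 (adjusted p = 0.85). Rhob, a small GTPase with a short-lived mRNA, read 1022, 969.7, 3203 and 3920.0 units and differed by 1.83 ± 0.23 (adjusted p = 0.46). In both, the 60 and 180 min arrays were above the 10 and 30 min arrays. Btg2, an antiproliferative cofactor of mRNA deadenylation, was higher by less, 0.83 ± 0.25, with 3164, 3587, 5052 and 7082 units. The NF-kappaB inhibitor Nfkbia was higher by 1.26 ± 0.33 and 0.62 ± 0.36 in its 2 probe sets. Dusp6, which acts on ERK, gave 3891, 2919, 6141 and 4426 units, highest at 60 min.

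The stress sensor Gadd45b kept a low level through 60 min, with 133, 219.8, 246 and 1375 units, and its difference of 1.77 ± 0.96 rests on the 180 min array. Its relatives Gadd45a (0.79 ± 0.32) and Gadd45g (1.29 ± 0.62) also had no overlap. Ier3, an apoptosis regulator, alternated, with 5.35, 3397, 344 and 3457 units at 10, 30, 60 and 180 min, high where the 18S control was high. The cytokine feedback gene Socs3 was higher by 0.60 ± 0.23, whereas Cish, of the same family, was lower at each later array, with 1699.6, 1425, 1092 and 755 units. Spry4, an inhibitor of receptor tyrosine kinase signalling, gave 2155, 2057, 1737 and 2154 units and overlapped.

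Promoter windows of 300 bases, 250 before to 50 after the start site, came from RefSeq (GRCm38.p6). Both strands were searched for the CArG box, the SRF element, and for the cyclic AMP response element TGACGTCA (CRE), which CREB and ATF factors bind. Of 32851 windows, 535 (1.63%) held a CArG box and 588 (1.79%) a CRE, and by gene, 488 of 27025 (1.81%) and 549 (2.03%) did. A match is a description of the letters in this window only. The windows of 5 early genes with a match are printed in part, so that their elements can be set beside their levels. All 5 were higher later without overlap, so they do not stand for all genes with a match. The first 2 have a CArG box and the other 3 a CRE in capitals. Zfp36 is at chr7:28379242-28379321 (minus strand), Egr2 at chr10:67537459-67537538 (plus strand), Dusp1 at chr17:26508572-26508651 (minus strand), Btg2 at chr1:134079278-134079357 (minus strand) and Epha2 at chr4:141301141-141301220 (plus strand), each upstream of the start site and read along the gene's strand.
Zfp36: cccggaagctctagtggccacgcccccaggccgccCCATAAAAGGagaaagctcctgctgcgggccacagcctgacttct
Egr2: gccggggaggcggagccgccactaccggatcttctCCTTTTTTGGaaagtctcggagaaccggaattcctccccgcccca
Dusp1: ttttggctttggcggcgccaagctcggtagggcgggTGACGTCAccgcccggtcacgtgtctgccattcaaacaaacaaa
Btg2: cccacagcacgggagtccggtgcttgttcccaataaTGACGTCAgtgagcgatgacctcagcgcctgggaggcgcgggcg
Epha2: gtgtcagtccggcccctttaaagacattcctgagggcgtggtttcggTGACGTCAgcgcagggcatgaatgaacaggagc
These counts cover only members with a window, 22 of 32 immediate-early factors, 25 of 29 feedback regulators and 17 of 25 secreted and surface genes. Among feedback regulators 1 of 25 held a CArG box (Zfp36) and 4 of 25 a CRE (Btg2, Dusp1, Errfi1 and Plk2). Of 22 immediate-early factors, 1 held a CRE (Maff, which was lower at the later times and is not printed). Among secreted and surface genes 0 of 17 held a CArG box and 1 of 17 a CRE (Epha2). The promoters of Egr1, Ier2, Myc, Klf10, Fosl1, Ccn2, Hbegf and Spry4, among others, were not analysed here.

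Secreted and surface proteins of the early response were higher later in 9 of 25 members without overlap (9.16% of all genes) and lower in 1 (10.6%), Tnc. The median was 0.21, and 3 members were 2-fold higher in both pairs (1.02% of all genes). Ccn2 (connective tissue growth factor), a matrix protein under SRF and YAP control, read 933, 814, 5990.4 and 9896 units, against 115 at 0 min. The later arrays lay far above the earlier ones, by 3.14 ± 0.30 (adjusted p = 0.188). Ccn1, its close relative, gave 333, 121, 1314 and 1861 units with the same order of groups and 2.96 ± 0.64. The receptor tyrosine kinase Epha2 gave 818, 897, 1907 and 3300.1 units and 1.55 ± 0.34.

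Inhba, the activin beta-A chain, was higher by 1.11 ± 0.32, with 802, 626, 1367 and 1715 units. The urokinase receptor Plaur was dim, with 257, 184, 663 and 355 units, and its 0 min array at 1001 was above all of them. Hbegf, a ligand of the EGF receptor, peaked at 60 min with 823, 1184, 2731 and 1259 units, and its 180 min array was close to the 30 min array. F3 (tissue factor) was higher by 1.26 ± 0.73, from 248, 54.5, 322 and 374 units, with the 30 min array at the floor. Ptgs2 and Il6, inducible in many fibroblasts, stayed at or near the floor through 60 min, and Ptgs2 read 223 units at 180 min.

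**Figure D2:**
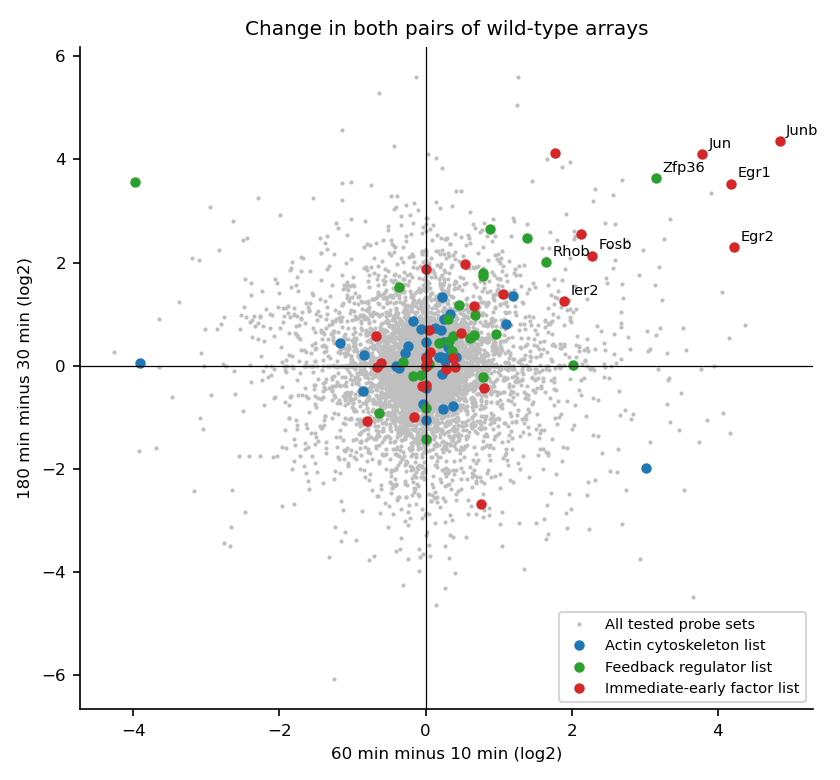
Log2 difference of 60 over 10 min (x axis) against 180 over 30 min (y axis) for each tested probe set in wild-type cells, with members of 3 lists coloured; the pairs share no array. The grey cloud has no slope (r = 0.0415 over 7942 probe sets), while Junb, Jun, Egr1, Egr2, Zfp36, Fosb, Rhob and Ier2 are above 1 on both axes.

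For arrays with a like 18S control, the sizes of the pair differences follow for early genes, whose direction in both pairs is fixed by groups that do not overlap. The 60 over 10 min and 180 over 30 min differences were 4.85 and 4.35 for Junb, 4.18 and 3.53 for Egr1, 2.28 and 2.13 for Fosb and 2.13 and 2.55 for Nr4a1. They were 3.15 and 3.65 for Zfp36, 1.65 and 2.02 for Rhob, 2.68 and 3.60 for Ccn2 and 1.22 and 1.88 for Epha2. In Atf3 (1.77 and 4.12) and Ccn1 (1.98 and 3.94) the second pair had the larger difference, and in Egr2 (4.22 and 2.29) the first, with its 10 min array at the floor.

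Genes of the actin cytoskeleton that SRF controls with MRTF cofactors had a median difference of 0.04, beside 0 over all genes. Of 41 on the array, 9 were higher without overlap (9.16% of all genes), 1 was lower (10.6%), and 1 was 2-fold higher in both pairs (1.02%). Further, 8 members were never above the floor. Cnn1 (calponin 1) gave the largest difference among members without overlap, 1.28 ± 0.32, with 697, 555, 1597 and 1426 units and both later arrays above both earlier ones. Csrp1, a LIM protein, gave 273, 371, 584 and 649.9 units and 0.95 ± 0.52. Smooth-muscle actin Acta2 gave 789.6, 654, 940.5 and 1221 units, the later arrays above the earlier ones by 0.58 ± 0.35.

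The cytoplasmic actins and vinculin were not ordered by group. Actg1 (gamma-actin) read 38839, 28087, 30080.1 and 27389.6 units, the 10 min array being the highest, with a difference of -0.20 ± 0.40. Its sign turned with arrays scaled to a common median (0.04) or trimmed mean (0.14). Vcl (vinculin) read 2848, 1589, 2721 and 2621 units, 0.33 ± 0.32, with overlap. Actb (beta-actin) read 3157, 7819.6, 3963 and 15641 units, low at 10 and 60 min and high at 30 and 180 min, the same times as the 18S control. Talin (Tln1) was the only member lower without overlap, with 876, 591, 485 and 421 units. At 0 min Vcl read 298, Actg1 9783 and Cnn2 40.3 units, each below the other 4 wild-type arrays. The rescue 0 min array was likewise the lowest of its line for these genes (883, 8891 and 57.6 units), but the Srf-null 0 min array was not.

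Of the 41 actin genes, 34 had a promoter window (Actb and Tagln were among the others, not analysed here), and CArG boxes were found in 10 of the 34 (Acta1, Actc1, Actg1, Cnn2, Fhl1, Fhl2, Lima1, Myl6, Myl9 and Vcl). The stretches of 3 of them are shown, since their levels are given here and differed by less than 0.5, with the box in capitals, on GRCm38.p6. Actg1 is at chr11:120348541-120348620 (minus strand), Vcl at chr14:20929148-20929227 (plus strand) and Cnn2 at chr10:79988509-79988588 (plus strand).
Actg1: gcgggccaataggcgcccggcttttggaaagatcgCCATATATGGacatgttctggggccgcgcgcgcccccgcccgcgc
Vcl: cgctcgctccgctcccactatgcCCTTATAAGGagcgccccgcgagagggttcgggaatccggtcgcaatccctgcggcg
Cnn2: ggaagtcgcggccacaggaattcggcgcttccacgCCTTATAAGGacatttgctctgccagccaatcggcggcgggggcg
Cnn2 (calponin 2) read 759.5, 519, 877 and 839.6 units and differed by 0.45 ± 0.40 without overlap.

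For 60 over 10 min, 499 probe sets were 2-fold or more higher (6.28%) and 465 lower (5.85%), and for 180 over 30 min 759 were higher (9.56%) and 859 lower (10.8%). Single steps between neighbouring times have 1 array on each side and no test. Each step also sets an array with a low 18S control (10 or 60 min) against one with a high control (30 or 180 min). A change with time and a difference between these kinds of array therefore cannot be told apart in a single step. From 10 to 30 min, 808 probe sets were 2-fold or more higher (10.2%) and 706 lower (8.89%). From 30 to 60 min 681 were higher (8.57%) and 734 lower (9.24%), and from 60 to 180 min 960 were higher (12.1%) and 1029 lower (13%). Between 30 and 60 min Junb differed by 4.19, Zfp36 by 3.26, Ccn1 by 3.44, Ccn2 by 2.88, Nr4a1 by 2.29 and Fosb by 2.17. Egr1 was higher at 30 than at 10 min, by 1.59. After 60 min Fosb (-0.04), Junb (0.15) and Ier2 (-0.31) differed little, and Gadd45b (2.48), Atf3 (1.19) and Id2 (1.83) were higher at 180 min. Of 29 immediate-early factors above the floor on at least 1 array, the highest of the 4 arrays was 10 min in 4 (27.1% of all 6471 such genes), 30 min in 3 (21.7%), 60 min in 7 (23.4%) and 180 min in 15 (27.9%). Among 27 feedback regulators the counts were 4, 3, 4 and 16.

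The largest single steps were of another kind. C1qbp, a mitochondrial protein, read -59.6, 8429.8, 77.5 and 10148 units at 10, 30, 60 and 180 min, and Pcp2, Serf2 and Med27 had the same alternation. Their high values fell on the arrays with a high 18S control. Faf1 (1707, 4.09, 2100.1 and -166 units) alternated the opposite way. None of these genes was separated by the groups compared.

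Other genes whose groups did not overlap included the inhibitors of differentiation Id1, Id2 and Id3, which BMP signals induce. In the list of 16 BMP and TGF-beta targets, 5 were higher without overlap and 0 lower (9.16% and 10.6% of all genes), with 2 at 2-fold higher in both pairs (1.02%). Id3 read 449, 761, 1466 and 4621 units, higher at each successive array from 10 min on, with 2.16 ± 0.61. Its 0 min array read 1714 units, above those of 10, 30 and 60 min. Id1 gave 2317, 3041, 4716 and 9744 units and 1.35 ± 0.39, and its 0 min array at 9471 was as high as that of 180 min. Id2 gave 973, 1251, 1604 and 5721 units and 1.46 ± 0.61, with 2216 units at 0 min. Smad7, a feedback inhibitor of the same pathway, overlapped, with 1395, 1036, 1814 and 1339.7 units.

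The metallothionein genes Mt1 and Mt2, which bind zinc and copper, were singled out after their values were seen. Mt1 read 4575, 3518, 10274 and 20066 units (1.84 ± 0.38) and Mt2 7399.9, 8028, 17495 and 27191 units (1.50 ± 0.32), each later array above each earlier one. Slc30a1, a zinc exporter that the same metal sensor controls, gave 190.0, 421, 660.4 and 1053 units and 1.56 ± 0.63. At 0 min they read 8353, 23151 and 1127 units, above both earlier arrays in each case. Rxrb, a retinoid X receptor, was below or near the floor at 10 and 30 min and read 1274 and 1188 units later, and 977 at 0 min. Fam102a (117, 107, 694 and 1052 units) had the same order, and Daglb read 204 units at 60 min and 4111 at 180 min, after values below 0.

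The largest lower values were mostly of transcripts that reached the floor at the later times, so that the differences are lower limits. Foxk1, a forkhead factor, read 575, 915, -11.9 and -3.04 units, and Sdc2, a heparan sulfate proteoglycan, 537, 737, 50.8 and -207. Both were at the floor at 60 and 180 min, and so were Rhbdl3, Tnnc2 and Six2. Atf6b, a factor of the unfolded protein response, read 1538, 7339, 643 and 109 units and gave -3.66 ± 1.08, with a 30 min array several times as bright as that of 10 min. Impdh1, an enzyme of guanine nucleotide synthesis, gave 530.4, 461, 15.7 and 86.9 units. None passed limma's test, with an adjusted p of 1 for all 12 genes of this kind.

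Lists for growth and metabolism are given by their counts without overlap, beside 9.16% higher and 10.6% lower of all genes. Ribosome biogenesis genes were higher without overlap in 3 and lower in 3 of 31, G1 and S phase genes in 3 and 2 of 26, chaperones in 1 and 2 of 26, genes of amino acid supply and the unfolded protein response in 1 and 2 of 23, and ribosomal proteins in 0 and 1 of 17 (the median of this list ran from -0.50 to 0.57 without 1 array). Translation factors and nucleotide synthesis had 2 higher and 4 lower of 19, with a median of -0.19 that ran from -0.32 to -0.0079 (without 180 min) when 1 array was left out, and cholesterol synthesis 0 and 3 of 18. Genes of G2 and mitosis had 1 higher and 5 lower of 22. Their median of -0.09 had no stable sign, from -0.17 to 0.0601 without 1 array and 0.0573 with the 0 min array in the earlier group. The kinase gene Plk1 was lower at 180 min with 4125, 1631, 3067 and 405 units, but overlapped.

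Hypoxia and glycolysis genes had 0 higher and 6 lower of 21 (9.16% and 10.6% of all genes), with a median of -0.16, of -0.03 for 60 over 10 min and of -0.40 for 180 over 30 min. Pfkm, the muscle phosphofructokinase, read 1575, 1188, 1074 and 684 units (-0.67 ± 0.37), and Pfkp 1618, 1506, 1203 and 961 (-0.54 ± 0.27). In both, the 180 min array was the lowest of the 4. Growth arrest and FoxO targets had 1 higher and 4 lower of 22, among them the cell cycle inhibitor Cdkn1c with 1242, 1521, 1162 and 597 units. Of 28 pluripotency genes, 7 were higher and 0 lower (9.16% and 10.6% of all genes). All 28 were bright enough to be tested, and over all tested probe sets the shares were 13% and 14.6%. Their median of 0.08 ran from 0.0069 to 0.12 without 1 array and was 0.0028 with arrays scaled to a common median. Fgf4, an ES cell growth factor, gave 0.34 ± 0.24 and Klf4 0.27 ± 0.21. Nanog (1065, 1391, 1248 and 2670.5 units) and Sox2 (30080.1, 18314, 31894 and 19560.2 units) overlapped.

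**Figure D3:**
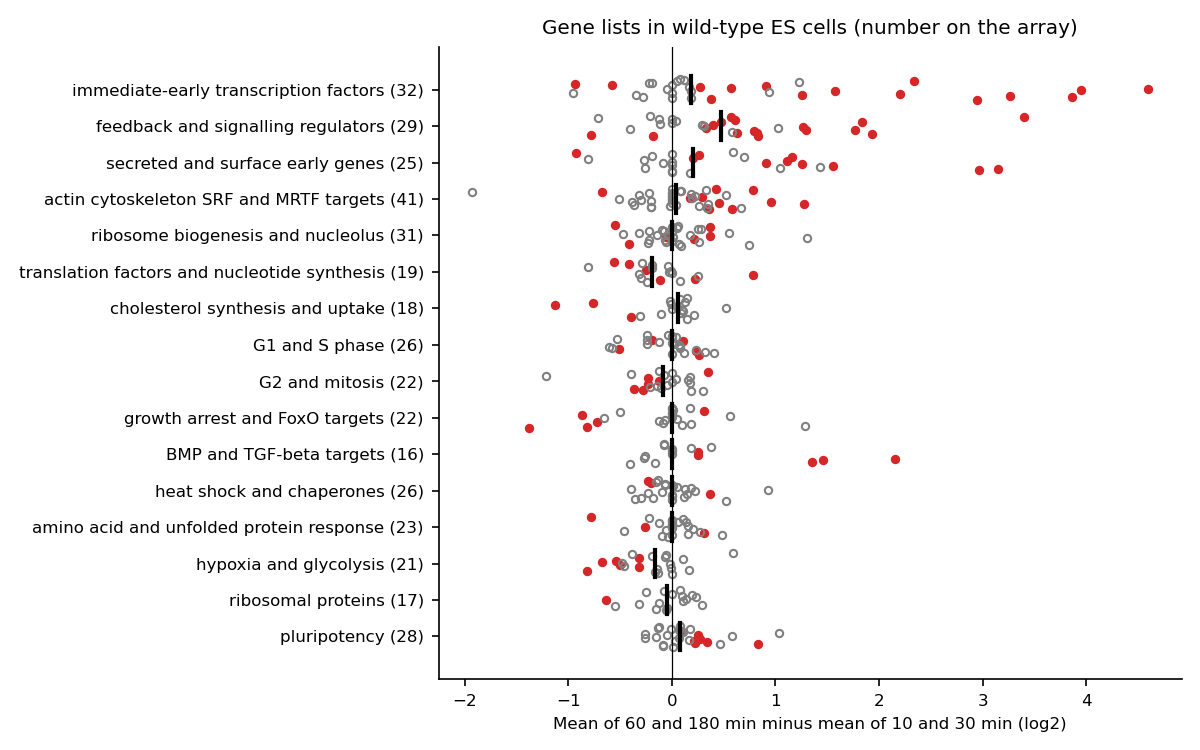
Difference between the means of 60 and 180 min and of 10 and 30 min (log2) for each member of 16 lists, with the number of members on the array in brackets; red points are members whose groups do not overlap, grey rings the others, and black bars the list medians. Members above 2 are found among the 3 early lists and Id3, while the medians lie between -0.19 and 0.48.

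The 0 min array was not a simple start of the course. Of the 84 genes that were 2-fold higher in both pairs, 37 had a 0 min value at or past the nearer later array, 24 lay with the earlier arrays and 23 in between. Among the 9 immediate-early factors of this kind, the counts were 1, 3 and 5. Junb, Jun, Egr1, Ccn2 and Zfp36 read 180.4, 121, -12.5, 115 and -0.0815 units at 0 min, all below their later arrays. The correlation of the 0 min array with the other wild-type arrays was 0.811 to 0.839 over 7942 probe sets, below the 0.847 to 0.933 among those 4. At 0 min Mycn read -104 and the brighter probe set of Igf2 -1853 units, against 4634 and 4981 at 10 min. The rescue 0 min array was low for both as well, with 552 and -1829 units against 7171 and 9337 at 10 min. In Srf-null cells Mycn read 2130 units at 0 min and 4016 at 10 min, and Igf2 lay below 0 at all times.

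**Figure D4:**
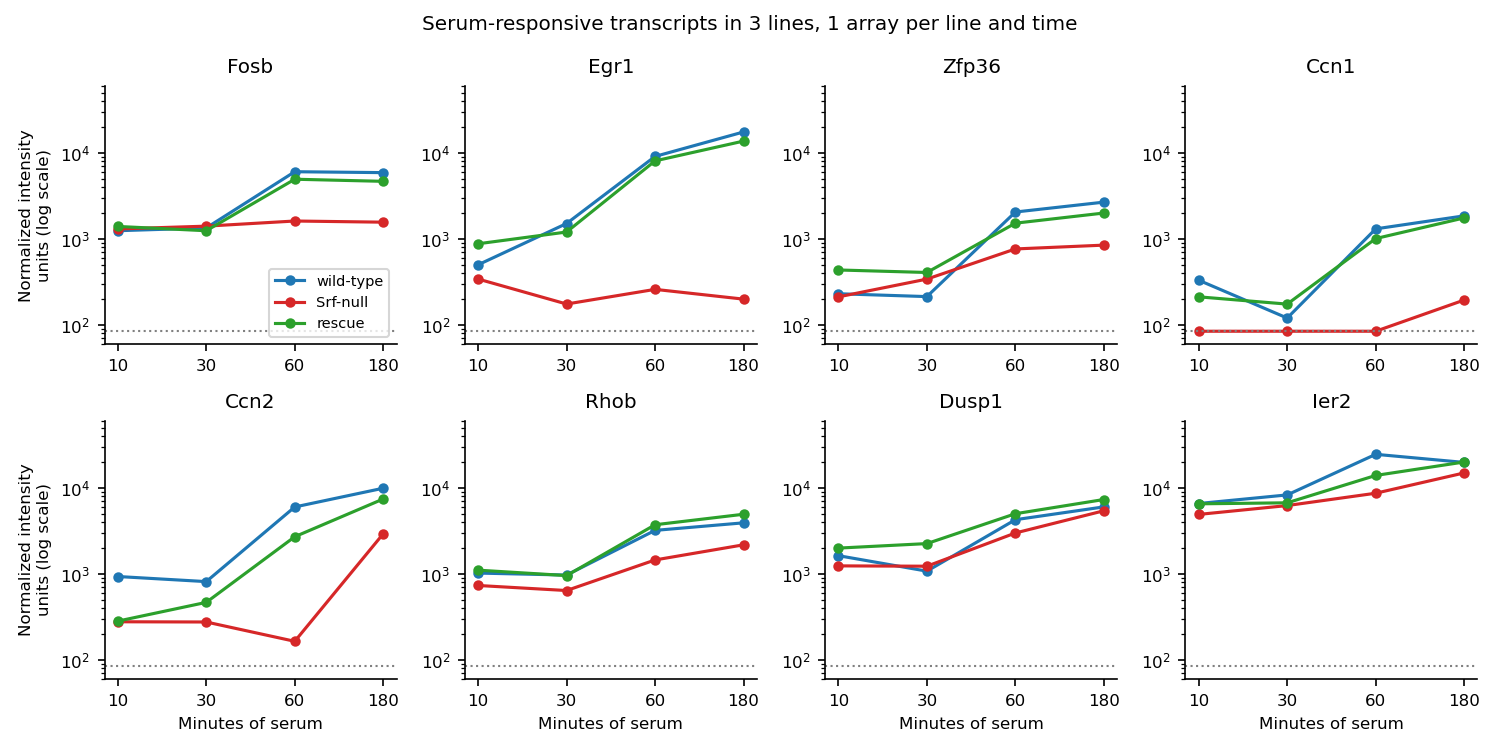
Normalized intensity (log scale) of 8 early transcripts at 10, 30, 60 and 180 min of FBS in wild-type (blue), Srf-null (red) and rescue (green) cells, 1 array per line and time, with the floor of 84.98 units dotted and times at equal spacing. Fosb and Egr1 are higher at 60 and 180 min in wild-type and rescue cells and stay within a narrow range in Srf-null cells, whereas Dusp1 is higher in all 3 lines.

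The difference between the later and the earlier group was compared between lines in 1 limma fit of 12 arrays over 9198 probe sets. Against the Srf-null line, 1 probe set was called (0.0109%, with 3.7% at an unadjusted p under 0.05), and it was Fosb. It read 1311, 1413, 1621 and 1571 units at 10, 30, 60 and 180 min in Srf-null cells and 1402, 1249.7, 4956 and 4685 in rescue cells. The Srf-null arrays stayed in the range of the earlier wild-type arrays or slightly above it, and the later rescue arrays lay close to the later wild-type ones. The Srf-null 60 min array had a beta-actin 3' to 5' ratio of 3.83. At 10, 30, 60 and 180 min the 18S control (3' probe set) read 18797.5, 3133, 24002 and 5562 units in Srf-null cells. In rescue cells it read 877, 498, 2082 and 21819 units, so that the high array fell in the later group only. The part of these controls in the result was not tested. The difference was 2.21 in wild-type, 0.23 in Srf-null and 1.86 in rescue cells, and wild-type minus Srf-null was 1.98 ± 0.20 (SE, 2 arrays per group, adjusted p = 0.0263). With arrays scaled to a common median it was 2.09 (adjusted p = 0.253), and it was not called without the wild-type 10 min (adjusted p = 0.101), 30 min (adjusted p = 0.0699) or 180 min (adjusted p = 0.135) array either, while the difference itself stayed between 1.92 and 2.03. With the time as a block, added after the data were seen, so that arrays of the same time in the 3 lines are set side by side, 0 probe sets were called (281 at an unadjusted p under 0.05) and Fosb had an adjusted p of 0.314. Against the rescue line 0 probe sets were called (0%, with 3.36% at an unadjusted p under 0.05), and the Fosb difference was 0.34 ± 0.20.

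Egr1 read 343, 176, 260.4 and 201 units in Srf-null and 882, 1208, 8094 and 13748 in rescue cells, a difference of -0.10 and 3.35 against 3.86 in wild-type cells. Wild-type minus Srf-null was 3.96 ± 0.78 (adjusted p = 0.742), which did not pass. Ccn1 was at the floor through 60 min in Srf-null cells, and Ccn2 read 278, 276, 165 and 2925 units there, high at 180 min. Rhob and Dusp1 differed by 1.37 and 1.70 in Srf-null cells, beside 1.83 and 1.93 in wild-type cells, and the differences between lines, 0.46 ± 0.34 and 0.23 ± 0.45, did not pass (adjusted p = 1 for both). Mt1 and Mt2 had differences of 2.22 and 1.58 in Srf-null cells, and 0.68 and 0.21 in rescue cells, whose earlier arrays were already at 10436 and 11130.5 units for Mt1.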

How the data were processed

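The values the authors deposited are linear intensity values of 12654 probe sets, 66 of them controls. No label or header names the software, background correction or scaling behind them. Between 24.9% and 29.0% of the wild-type values were 0 or negative, and between 25.0% and 41.6% of those on arrays of the other lines. All 15 arrays were quantile-normalized together, values under the 40th percentile (84.98, log2 6.41) were set to it, and log2 was taken. The test took in probe sets that exceeded the floor on 2 or more of the 4 wild-type arrays compared, with limma 3.58.1 in R 4.3.3 (lmFit, eBayes with an intensity trend, 2 residual degrees of freedom). Calls needed an adjusted p (Benjamini-Hochberg) under 0.05. A second fit of 12 arrays compared the lines. Arrays were grouped by title, and their number limits the precision.

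One symbol was given for 10298 probe sets in the platform annotation, several for 363 and none for 1993, and 10279 symbols were updated through gene identifiers. Srf has no named probe set, so genotype labels could not be checked by that gene. In the 22 lists, a gene with several probe sets was represented by the brightest on average over 15 arrays, without a filter. Members and lists were chosen with earlier results of these data known, and so were the genes named: a fixed set, the 12 largest differences in each direction whose groups do not overlap, all called genes, up to 4 members of a list and the 5 largest single steps each way. Genes outside this rule were named after their values were seen, among them Nr4a1, Klf6, Klf10, Nfkbia, Socs3, Cish, Gadd45a, Gadd45g, Inhba, Hbegf, Ptgs2, Il6, Mt1, Mt2, Slc30a1, Smad7, Plk1, Nanog and Sox2. Promoters were searched for exact motifs. The alternatives were other scalings, floors, filters and spreads, an 18S term, the time as a block and leaving out arrays.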

Additional observations from a re-analysis of the deposited data

Results flagged for a closer look

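Fosb stood out because the difference between 60 and 180 min and 10 and 30 min of FBS was not the same in 2 lines by a test of that difference itself. It was 1.98 log2 units larger in wild-type than in Srf-null cells (1.976 before rounding, limma adjusted p = 0.0263, 2 arrays per group), with both later wild-type arrays above all 4 Srf-null arrays. Leaving out each of the 4 wild-type arrays in turn gave differences from 1.92 to 2.03 with adjusted p from 0.0226 to 0.135. The call was lost with the time as a block (adjusted p = 0.314) and with arrays scaled to a common median (adjusted p = 0.253).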

How the results depend on the processing

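The main limit is 2 arrays per group. The 0 calls stayed 0 in each alternative except the spread shared over 12 arrays (5, and 5 with the time as a block). Probe sets without overlap (1036 higher, 1160 lower) became 677 and 750 with the floor at the 60th percentile, 503 and 597 with the 0 min array in the earlier group, and 2032 to 2570 and 2136 to 3049 without 1 array, where 3 arrays overlap less by construction. The floor at the 25th percentile lay at 0.008262 units and that at the 60th at 449.4 units. With the lower one, a value below 0 counts as many log2 units under a dim positive value, which swells the counts past 2-fold. Those at 2-fold in both pairs (119 higher, 90 lower) became 380 and 330 with the floor at the 25th percentile, 28 and 4 at the 60th, and 55 and 20 when all 4 arrays had to be above the floor. The 90 became 55 with quantiles over the 5 wild-type arrays and 59 with a common trimmed mean. Steps past 2-fold were 1469, 1354 and 1622 higher and 1378, 1391 and 1742 lower (30 over 10, 60 over 30, 180 over 60 min) with the 25th percentile, 233, 152 and 365 higher and 126, 227 and 304 lower with the 60th, and 427, 292 and 545 higher and 290, 395 and 527 lower with all 4 arrays above the floor.

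Against Srf-null cells the 1 call became 0 with a common median, 0 with the time as a block (Fosb adjusted p = 0.314) and ran from 0 to 14 without 1 wild-type array (0 without 30 min or 180 min, 14 without 60 min, and 1 without 10 min, which was not Fosb). Against rescue cells it ran from 0 to 8 (1 without 10 min, 8 without 60 min). The median of immediate-early factors (0.19) was 0.27 with a common median, 0.32 with a trimmed mean, 0.32 and 0.10 with the lower and higher floor, 0.46 with 0 min among the earlier arrays, and 0.17 to 0.39 without 1 array. That of feedback regulators was 0.32 with a common median, 0.33 with the higher floor and 0.31 to 0.56 without 1 array. For secreted genes it was 0.18 with quantiles over 5 arrays, 0.15 with a common median, 0.25 with a trimmed mean, 0.26 and 0 with the lower and higher floor, 0.10 with 0 min and 0.14 to 0.26 without 1 array. For actin genes it was 0.17 with 0 min and 0 to 0.12 without 1 array.

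Signs turned for genes without a call, and the cause was not tested. A common median gave Jund 0.26, Actg1 0.0404 and S100a6 -0.0374, a trimmed mean Jund 0.36 and Actg1 0.14, and the lower floor 5.89 for the dim probe set of Vcl. That last value follows from the floor itself. The 10 min value of -69.5 units was set to 0.008262 units, beside 179, 42.7 and 122 units at 30, 60 and 180 min. The 0 min array turned Mycn (1.62), Ccnd1 (-0.31), Actg1 (0.38), Igf2 (1.43), Ubtf (-0.00141), Cdk4 (0.26), Pola1 (0.0340), Bub1 (0.27), Mki67 (0.00241), Cars (-0.25), Pdia3 (0.12) and S100a6 (-0.0161). Without 1 array Actb ran from -0.33 to 1.65 and from -0.37 to 1.43 in 2 probe sets, Actg1 from -0.44 to 0.0313, Ier3 from -1.64 to 3.68, Jund from -0.85 to 0.76, Mycn from -0.64 to 0.20, Pou5f1 from -0.69 to 0.17, Spry4 from -0.28 to 0.0328 and Vcl from -0.0927 to 0.75. The labels give no replicate numbers by which arrays could be paired. The pairings used are by time across lines and by 18S level within the wild-type line, where a term left 1 residual degree of freedom and 0 calls.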
